A study of Sus scrofa with 2 samples.

Results

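EHD3-positive endothelial nuclei of the pig kidney cortex were 146 of the 12955 barcodes with 500 to 6000 detected genes, 73 of 7035 in the unperfused library and 73 of 5920 in the perfused one. A barcode was a member when FLT1, PTPRB, TEK, EMCN and ADGRL4 together gave at least 4 UMIs and at least 15 per 10000 UMIs, and EHD3 gave at least 1 UMI. In addition, LRP2 and CUBN together had to stay under 30 per 10000, SLC12A1 under 20 per 10000, and PTPRC at 0 UMIs. All 10 of these genes are therefore part of the definition, and their values are given only as a description. UMIs are counted RNA molecules, and levels are given as CPM, the UMIs of a gene per 1000000 UMIs of all nuclei of a group summed. A gene was counted in a comparison when the nuclei compared held at least 40 UMIs of it together.

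Single-nucleus RNA sequencing was done on pig renal cortex before and after normothermic ex vivo perfusion, to ask what raised filtration pressure does to kidney cells. Slaughterhouse kidneys were flushed and kept at 4 °C for about 2 h before any perfusion. The unperfused group was cortex taken before perfusion, and the perfused group was cortex taken after 120 min of perfusion at 37 °C and 100 mmHg. No gene was altered and no drug group was included, and the labels do not say whether both pieces came from the same animal. Each group was 1 library (n = 1), so no difference has a replicate check, no test was made, and all intervals are exact 95% intervals that cover counting error only.

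The glomerular capillary is a flat, fenestrated endothelium that faces podocytes across a shared basement membrane and is held by mesangial cells. It forms under VEGF from podocytes, filters plasma through open fenestrae without the PLVAP diaphragm that peritubular capillaries carry, and lines a capillary under unusually high pressure. EHD3, an ATPase of endocytic membrane recycling, is among the best known transcripts of this endothelium. PLAT (tissue plasminogen activator) and the transcription factors TBX3 and GATA5 are others.

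The members were shallow nuclei. They held 183217 UMIs in the unperfused library and 228447 in the perfused library, with a median of 2202 UMIs per nucleus (1028 to 7073) and 2625 (1085 to 12650). Endothelial nuclei that met the same rule but had no UMI of EHD3, called EHD3-negative here, numbered 1198 and 845 and had medians of 1915 and 2190 UMIs. A gene with 0 UMIs in all members could still have had up to 16.4 CPM (unperfused) or 13.1 CPM (perfused), the level of 3 UMIs. The libraries shared 14 barcodes, none of them a member in both. Scrublet called no member a doublet.

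EHD3 gave 129 UMIs in the unperfused members and 119 in the perfused members, or 704 and 521 CPM. Most members rested on a single molecule of it, 49 of 73 unperfused and 46 of 73 perfused, and 24 and 27 had 2 or more. In tubule nuclei, which should lack EHD3 and were deeper (medians of 5159 and 6492 UMIs), 0.690% and 0.571% had a UMI. EHD3 was also detected in 72 further barcodes of the unperfused and 55 of the perfused library that failed the rule. The endothelial limit alone kept out 19 and 15 of them, with at most 14.9 and 13.1 per 10000, while the lowest members had 24.6 and 15.5. PTPRC, the pan-leukocyte phosphatase, alone kept out 19 and 14.

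The members made up 1.04% of the kept unperfused barcodes (0.814 to 1.303%) and 1.23% of the perfused ones (0.968 to 1.55%). Among endothelial nuclei they were 5.74% (4.53 to 7.17%) and 7.95% (6.29 to 9.90%). With every barcode thinned to 2000 UMIs the endothelial shares were 5.96% (4.23 to 8.12%) and 6.63% (4.80 to 8.89%), from 37 and 41 members. Of the original members 28 and 16 were shallower than that, and of the 45 and 57 deep enough some no longer met the rule with fewer UMIs. The intervals overlapped in each of these pairs, and with 1 library per condition a difference in abundance could not be tested.

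The label of an endothelial nucleus matched the markers. All 20 genes of a pan-endothelial list were detected in the members of both libraries, and all 20 were at least 2-fold higher there than in barcodes of neither endothelial group, where 23.1% of 15470 genes were that much higher in both libraries. Summed over the list, the members had 22460 and 23220 CPM, the EHD3-negative nuclei 16380 and 18560 CPM, and tubule nuclei 2134 and 2183 CPM. Gene by gene the members were not higher than the EHD3-negative nuclei. The median log2 ratios were -0.06 and -0.21, with 9 and 8 of the 20 above 0. PTPRM, a homophilic receptor phosphatase, led the list at 5403 and 5406 CPM. PECAM1, the platelet endothelial adhesion molecule, stood at 955 and 661 CPM against 1136 and 1154 CPM in the EHD3-negative nuclei. ERG, an ETS factor that maintains endothelial identity, was alike in both, at 480 and 521 CPM against 576 and 578 CPM.

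The 5 endothelial genes of the rule ran in both directions between members and EHD3-negative nuclei. PTPRB, a receptor phosphatase that acts on TEK, was at 1495 and 1554 CPM in the members against 1201 and 1430 CPM, and ADGRL4, an adhesion receptor of endothelium, at 982 and 976 CPM against 1096 and 1131 CPM. EMCN, the sialomucin endomucin, was at 3297 and 2071 CPM in the members against 2049 and 1829 CPM. TEK, the angiopoietin receptor, was at 535 and 486 CPM against 1517 and 1402 CPM. FLT1, a VEGF receptor, stood at 988 and 893 CPM against 1349 and 1494 CPM, and KDR, the main signalling VEGF receptor and not part of the rule, at 1272 and 889 CPM against 743 and 670 CPM. KDR thus ran with EMCN, and TEK the other way.

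**Figure D1:**
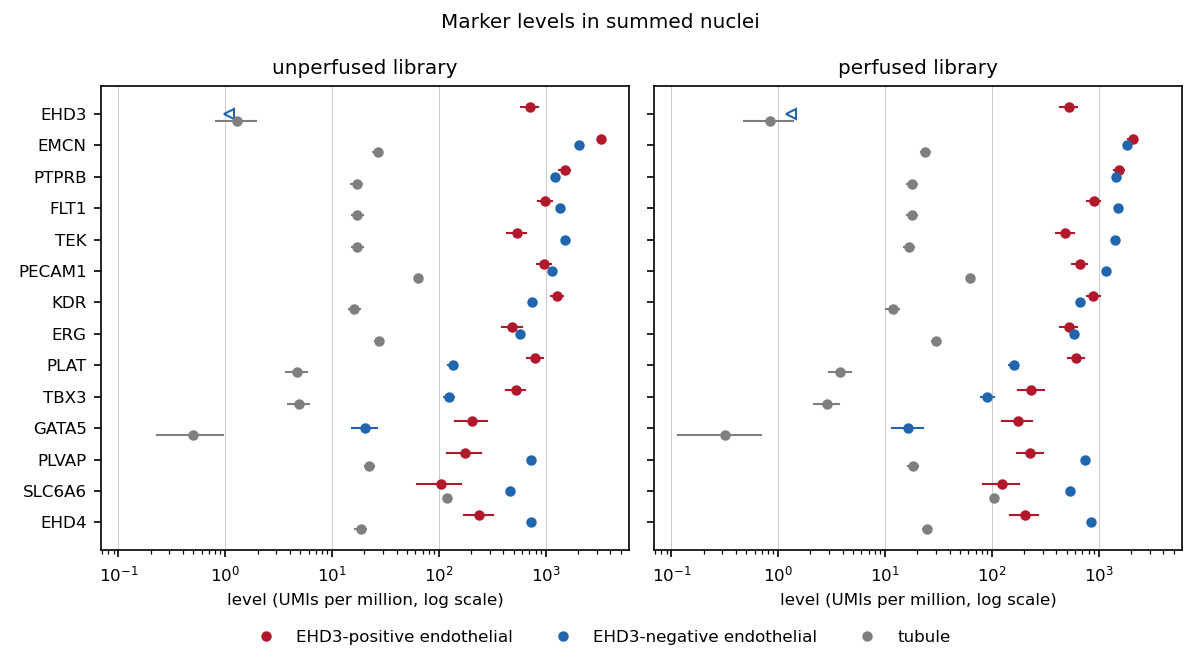
Level of 14 marker genes (CPM, log scale) in EHD3-positive endothelial, EHD3-negative endothelial and tubule nuclei of each library, with exact 95% counting intervals; open triangles give the limit for genes with 0 UMIs. EHD3 to TEK belong to the rule, PLAT, TBX3 and GATA5 lie to the right in the EHD3-positive nuclei, and PLVAP, SLC6A6 and EHD4 lie to the left of the EHD3-negative nuclei.

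The glomerular part of the label was then checked on a list of 19 glomerular endothelial genes, of which 18 were in the files. Of the 11 that could be counted and were not in the rule, 4 (PLAT, TBX3, GATA5 and TSPAN7) were at least 2-fold higher in EHD3-positive than in EHD3-negative nuclei in both libraries and none was 2-fold lower. Over all genes, 1.09% of 7696 were that much higher and 3.14% that much lower. The list had median log2 ratios of 1.05 (unperfused) and 0.41 (perfused), against -0.03 and -0.00 over all genes. SOST was at 0 UMIs in every group, and CRHBP and LPL had no UMI in the members. Not every marker known from other species was therefore seen.

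GATA5 was at 202 and 175 CPM in the members, against 20.2 and 16.3 CPM in the EHD3-negative nuclei, with log2 ratios of 3.32 (2.68 to 3.94) and 3.42 (2.74 to 4.11). It was found in 38.4% and 36.99% of the members, in 3.76% and 3.43% of the EHD3-negative nuclei and in 0.263% and 0.228% of the deeper tubule nuclei. PLAT was at 791 and 613 CPM against 134 and 159 CPM. It was found in 75.3% and 53.4% of the members, in 15.03% and 16.6% of the EHD3-negative nuclei and in 2.40% and 2.24% of tubule nuclei. TSPAN7, a tetraspanin, was at 213 and 201 CPM against 74.1 and 66.6 CPM. NOSTRIN, which traffics endothelial nitric oxide synthase, missed the 2-fold limit in one library only, with log2 ratios of 1.40 and 0.86.

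The opposite pattern held for peritubular capillary genes. Of 8 counted, 6 were at least 2-fold lower in the members in both libraries and none was higher, with list medians of -1.63 and -1.78. PLVAP, the protein of fenestral diaphragms, was at 175 and 228 CPM in the members against 718 and 736 CPM, log2 ratios of -2.04 (-2.59 to -1.54) and -1.69 (-2.12 to -1.29). It was detected in 16.4% and 27.4% of the members, 68.0% and 69.8% of the EHD3-negative nuclei and 10.6% and 9.70% of tubule nuclei. The interval of the unperfused members (8.79 to 26.95%) held the share in tubule nuclei, that of the perfused members (17.61 to 39.09%) lay above it, and PLVAP was at 22.3 and 18.3 CPM in tubule nuclei. SLC6A6, the taurine transporter, had log2 ratios of -2.16 and -2.11. CD36, a fatty acid receptor, had -1.88 and -1.87, and RGCC, a regulator of the cell cycle and complement response, -1.38 and -1.15. DNASE1L3, a secreted nuclease often used for the same capillaries, did not share this, with 0.43 (-0.14 to 0.95) and 0.11 (-0.48 to 0.66).

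Beside the 3.14% lower and 1.09% higher over all genes, 3 of 12 arterial genes were at least 2-fold lower (JAG1, LTBP4 and SEMA3G, all on 10 or fewer member UMIs) and 1 higher, SULF1. SULF1, an enzyme that trims heparan sulphate, was at 213 and 184 CPM in the members against 52.4 and 88.3 CPM. EFNB2, the arterial ephrin, was at 398 and 429 CPM against 350 and 372 CPM, log2 ratios of 0.19 and 0.21 whose intervals both held 0. Venous genes gave 0 higher and 1 lower of 4, VCAM1, a leukocyte adhesion molecule, and lymphatic genes 0 of 1.

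Genes with at least 40 member UMIs in each library were ranked, whether on a list or not, a limit that left out GATA5 and TSPAN7. The 15 with the largest difference in favour of the members (PLAT, TBX3, ITGA8 and ST6GALNAC3 of the lists among them) formed a mixed group of signalling, adhesion and transcription genes. They were chosen on these same nuclei, and so their values are a description. DGKB, a kinase that removes diacylglycerol, was at 1075 and 1099 CPM in the members, against 82.7 and 95.8 CPM in the EHD3-negative nuclei, log2 ratios of 3.70 (3.42 to 3.98) and 3.52 (3.25 to 3.79). It was found in 58.9% and 57.5% of the members, in 6.01% and 6.98% of the EHD3-negative nuclei and in 5.65% and 4.49% of tubule nuclei. DGKI, another kinase of the same family, was among the 15 genes lower in the members, with 38.2 and 30.6 CPM against 235 and 180 CPM. The pair of related enzymes therefore ran in opposite directions.

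ITGA8, an integrin chain for nephronectin that is better known from mesangial cells, was at 1244 and 1440 CPM in the members against 148 and 174 CPM in the EHD3-negative nuclei and 13.97 and 10.3 CPM in tubule nuclei. It was detected in 71.2% and 65.8% of the members. Of the 6 genes of the mesangial and smooth muscle list that could be counted, only ITGA8 was at least 2-fold higher in both libraries (1.09% over all genes). The 6 had a median log2 ratio of -0.89 in the unperfused library, with 1 above 0. In the perfused library the median was 0.74, with 4 above 0. Without nuclei that held stromal RNA (defined below) ITGA8 still had 210 and 302 UMIs in the members, of 228 and 329.

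The channel and receptor genes were CACNB2, a subunit of voltage-gated calcium channels, with log2 ratios of 2.88 and 3.21, GRIK4, a kainate receptor subunit, with 2.52 and 2.15, and CHRM2, a muscarinic acetylcholine receptor, with 1.58 and 1.70. CACNB2 reached 464 and 709 CPM. The adhesion genes were MDGA2, a membrane-anchored adhesion protein known from synapses, with 2.53 and 2.69, and PCDH7, a protocadherin, with 2.04 and 1.79. AGBL4, which removes glutamates from tubulin, had 1026 and 980.5 CPM against 105.5 and 113 CPM, and log2 ratios of 3.28 and 3.11. Tubule nuclei also held AGBL4, at 157 and 225 CPM, and MDGA2, at 135 and 194 CPM. Of the genes given below, GRB14 was detected in 58.15% and 64.7% of the deeper tubule nuclei and 57.5% and 49.3% of the members. RANBP6 was detected in 45.4% and 47.6% of tubule nuclei and 61.6% and 58.9% of the members.

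IL33, a nuclear alarmin cytokine of barrier and endothelial cells, was at 999 and 814 CPM in the members against 185 and 224 CPM, log2 ratios of 2.43 and 1.86. RANBP6, of the importin family, was at 1326 and 1331 CPM against 318 and 329 CPM, log2 ratios of 2.06 and 2.02. IL33 and RANBP6 are neighbours in the pig assembly Sscrofa11.1, with 0 protein-coding genes between them. Both were counted with intronic reads, and reads of neighbouring genes were not separated further.

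IGFBP5, a secreted binding protein for insulin-like growth factors, was the most abundant of the 15 in the unperfused members, at 4994 CPM against 1187 CPM in the EHD3-negative nuclei. In the perfused members it was at 2924 CPM against 937 CPM. ST6GALNAC3, a sialyltransferase, was at 3913 and 4758 CPM against 1082 and 1249 CPM, and GRB14, an adaptor of the insulin receptor, at 426 and 372 CPM against 133 and 136 CPM. TBX3 was at 524 and 232 CPM in the members, the only one of the 15 to differ 2-fold between libraries, against 125 and 90.03 CPM. RTN1, a reticulon of the endoplasmic reticulum, missed the limit of 40 UMIs in the perfused members by 1 UMI, and is named after its values were seen. The unperfused members and EHD3-negative nuclei had 42 UMIs of it each, of 183217 and 2768249 UMIs in all. The perfused ones had 39 and 11, which gave log2 ratios of 3.92 (3.27 to 4.57) and 5.14 (4.14 to 6.25).

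Of the 15 genes that ranked highest by the unperfused library alone, 14 also passed 2-fold in the perfused one, where their median log2 ratio was 2.15 in place of 2.53. The exception was KCND2, a potassium channel subunit, with 0.36 in the perfused library. Ranked by the perfused library alone, 15 of 15 passed 2-fold in the unperfused one. The libraries may share an animal, so this compares libraries and not animals.

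**Figure D2:**
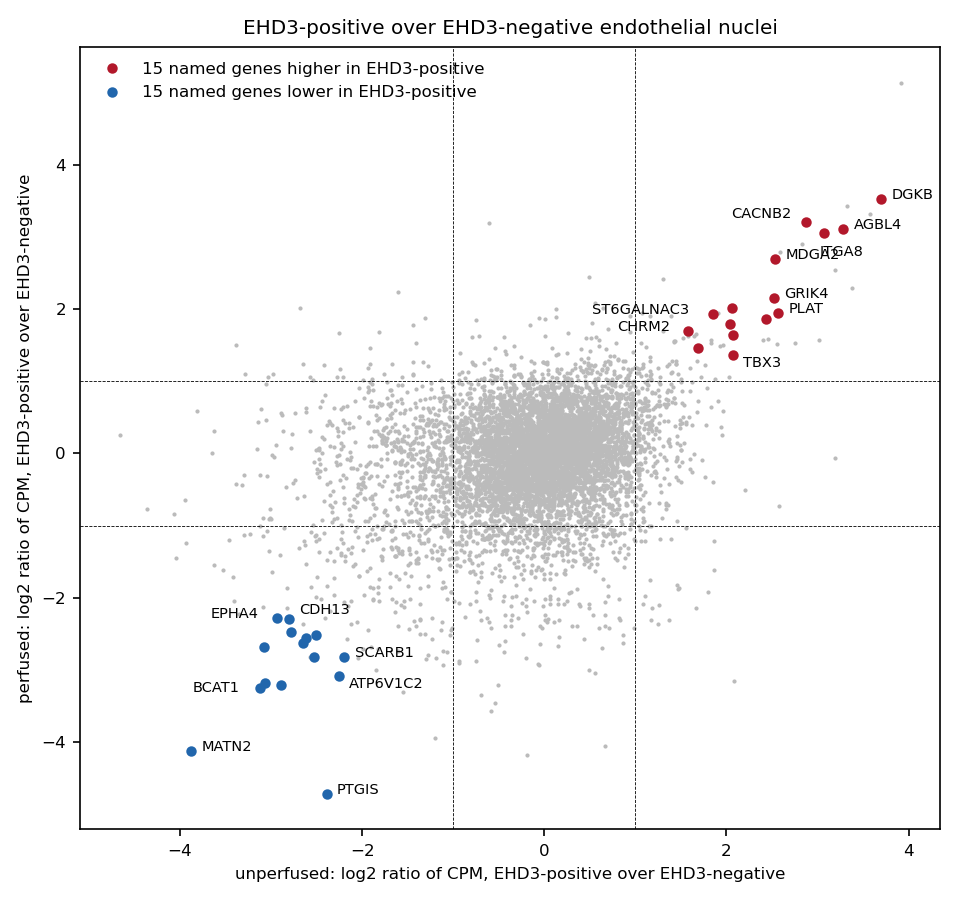
Log2 ratio of CPM in EHD3-positive over EHD3-negative endothelial nuclei in the unperfused (x) and perfused (y) library for 7696 genes, with the 15 named genes in each direction coloured, some of them labelled, and dashed lines at 2-fold. The named higher genes lie between 1.58 and 3.70 on x and between 1.37 and 3.52 on y, and the named lower genes all lie below -2 on both axes, ATP6V1C2 at its bound on x.

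Of the 15 genes lowest in the members, 7 rested on a single member UMI in both libraries or on 1 and 2. Among those with more, XYLT1, which starts glycosaminoglycan chains on proteoglycans, was at 191 and 245 CPM against 1089 and 1396 CPM, log2 ratios of -2.51 in both libraries (-3.04 to -2.03 and -2.92 to -2.13). SCARB1, the HDL receptor, was at 120 and 83.2 CPM against 550 and 587 CPM, with log2 ratios of -2.19 and -2.82. LRRC3B had -2.78 and -2.48. CDH13, the anchored T-cadherin, had -2.81 and -2.29, and EPHA4, an ephrin receptor, -2.93 and -2.28. MATN2, a matrilin of the matrix, had 1 UMI in the members of each library against 222 and 173 UMIs, with intervals of -9.19 to -1.38 and -9.44 to -1.63. ATP6V1C2, a subunit of the proton pump, had no UMI in the unperfused and 1 in the perfused members. PTGIS, the prostacyclin synthase, had 4 and 1 UMIs against 317 and 260.

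The counts of the pathway lists are given beside 1.09% higher and 3.14% lower over all genes, and with so few genes in a list a count of 1 or 2 is no result about the list. In the list of caveolae, fenestrae and the EHD family, 3 of 10 were lower (PLVAP, EHD2 and EHD4) and none higher. EHD4, the relative of EHD3 that is broadly endothelial, was at 235 and 201 CPM against 729 and 841 CPM, log2 ratios of -1.63 and -2.06. The direction of EHD3 was fixed by the rule, so no contrast between EHD3 and EHD4 can be drawn. For VEGF and angiopoietin signalling 0 of 7 were higher and 1 lower, NRP2, a VEGF co-receptor, with -1.95 and -1.23. In basement membrane, 2 of 14 were lower, LAMA4 (-2.22 and -1.09), a laminin chain of vessels, and HSPG2 (-1.23 and -1.45), the proteoglycan perlecan. In glycocalyx and heparan sulphate, 2 of 6 were higher, SULF1 and HS3ST1, a sulphotransferase with 12 and 10 member UMIs. Of 19 endothelial transcription factors, 2 were higher (GATA5 and TBX3) and 0 lower. Coagulation gave 1 of 6 higher (PLAT), Notch 1 of 10 lower (JAG1), and BMP and TGF-beta 0 of 20 in either direction, as did flow response with 0 of 9 and junctions with 0 of 13. SMAD6, an inhibitor of BMP signalling and also a glomerular list gene, was at 1419 and 1484 CPM against 792 and 1148 CPM.

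NPHS1, the slit diaphragm protein nephrin, had 1 UMI in the unperfused and 0 in the perfused members. Of 6 podocyte genes counted, 0 were higher and 1 (NPNT, nephronectin) lower than in the EHD3-negative nuclei. Over all genes 1.09% were higher and 3.14% lower, and a count of 1 in so short a list is no result about it. CLIC5, which is on the podocyte list but was as abundant in the EHD3-negative nuclei, led it at 1386 and 1304 CPM. For leukocytes, PTPRC was at 0 by the rule, and CD74, the invariant chain, supplied 164 and 205 of 168 and 234 UMIs of the list. RNA of tubule cells was present throughout. From the 4 genes UMOD, SLC5A12, SLC34A1 and SLC12A3, free RNA was estimated at 16.2% and 17.7% of the members' UMIs and 21.6% and 23.2% of those of the EHD3-negative nuclei.

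In single nuclei, the 15 genes divided the members. Together they gave a median of 43 UMIs in the unperfused members (3 to 106) and 59 in the perfused members (0 to 206), or 218 and 224 per 10000 UMIs. The median was 28.2 and 25.8 per 10000 in EHD3-negative nuclei, and 10.3 and 12.4 in tubule nuclei. At 100 or more per 10000 stood 63 of 73 unperfused members (86.3%, 76.3 to 93.2%) and 55 of 73 perfused members (75.3%, 63.9 to 84.7%). The remaining 10 and 18 members lay under 100 per 10000, as most EHD3-negative nuclei did, although they had EHD3. Conversely, 94 of 1198 unperfused (7.85%) and 71 of 845 perfused (8.40%) EHD3-negative nuclei reached 100 per 10000, but only 2 and 0 tubule nuclei did. With all nuclei thinned to 2000 UMIs, 10 or more UMIs of the 15 genes were found in 40 of 45 and 47 of 57 members, in 23.6% and 24.5% of EHD3-negative and in 2.01% and 2.03% of tubule nuclei.

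**Figure D3:**
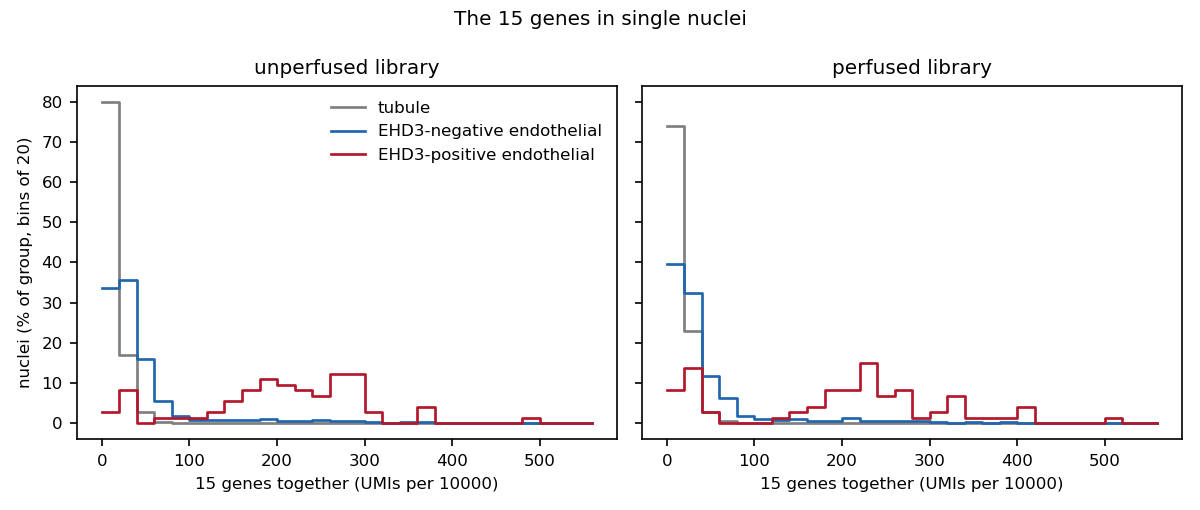
Distribution over single nuclei of the 15 named higher genes together (UMIs per 10000, bins of 20) as a percentage of EHD3-positive endothelial, EHD3-negative endothelial and tubule nuclei in each library. The EHD3-positive nuclei form a broad group around medians of 218 and 224 with a smaller group below 100, where most EHD3-negative and nearly all tubule nuclei lie.

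Members were also split by their UMIs of EHD3, a gene of the rule. The 15 genes were chosen on these same nuclei for being high with EHD3, so the values are a description and support no conclusion. The 15 genes summed to 22010 CPM with 2 or more UMIs and 18280 CPM with 1 in the unperfused library. In the perfused library they summed to 21880 and 15570 CPM. Stromal RNA (defined below) differed too, at 104 CPM with 2 or more and 216 CPM with 1 in the unperfused library. In the perfused library it was at 628 and 1555 CPM. Single genes differed in direction. AGBL4 was higher with 2 or more UMIs of EHD3, with log2 ratios of 0.87 and 1.13, but RANBP6 had -0.61 (-1.04 to -0.20) and -0.32 (-0.68 to 0.03), IL33 -0.22 and -0.08 with intervals that held 0, and MDGA2 0.27 and -0.49 (-0.99 to -0.02). PLVAP was at 29.7 CPM in the unperfused members with 2 or more UMIs of EHD3 and at 259 CPM in those with 1, a log2 ratio of -3.13 (-6.24 to -1.15), and at 137 against 284 CPM in the perfused members, -1.05 (-2.12 to -0.09). Members with no UMI of PLVAP, 61 unperfused and 53 perfused, held the 15 genes at 22100 and 24880 CPM. The 12 and 20 members with PLVAP held them at 9816 and 4930 CPM. PLVAP was detected in 7 of the 10 unperfused and 15 of the 18 perfused members under 100 per 10000 of the 15 genes, but in 5 of the other 63 and 5 of the other 55.

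Some members held stromal RNA. Over 17 genes of the fibroblast and the mesangial and smooth muscle lists, without ITGA8 and PIEZO2, the unperfused members had 32 UMIs and the perfused members 274. The limit of 3 such UMIs, set after the values were seen, was reached by 5 of 73 unperfused members (6.85%, 2.26 to 15.3%) and 13 of 73 perfused members (17.8%, 9.84 to 28.5%). The same limit was reached by 5.26% and 19.4% of EHD3-negative nuclei. The 13 perfused nuclei carried 251 of the 274 UMIs, up to 48 in 1 nucleus, and had a median of 28.4 per 10000 of the 15 genes. The other 60 perfused members had 232 per 10000. The 13 were deeper, with a median of 3356 UMIs against 2550, and had fewer UMIs of the pan-endothelial list, 10600 against 28000 CPM. Scrublet called none of them a doublet.

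**Figure D4:**
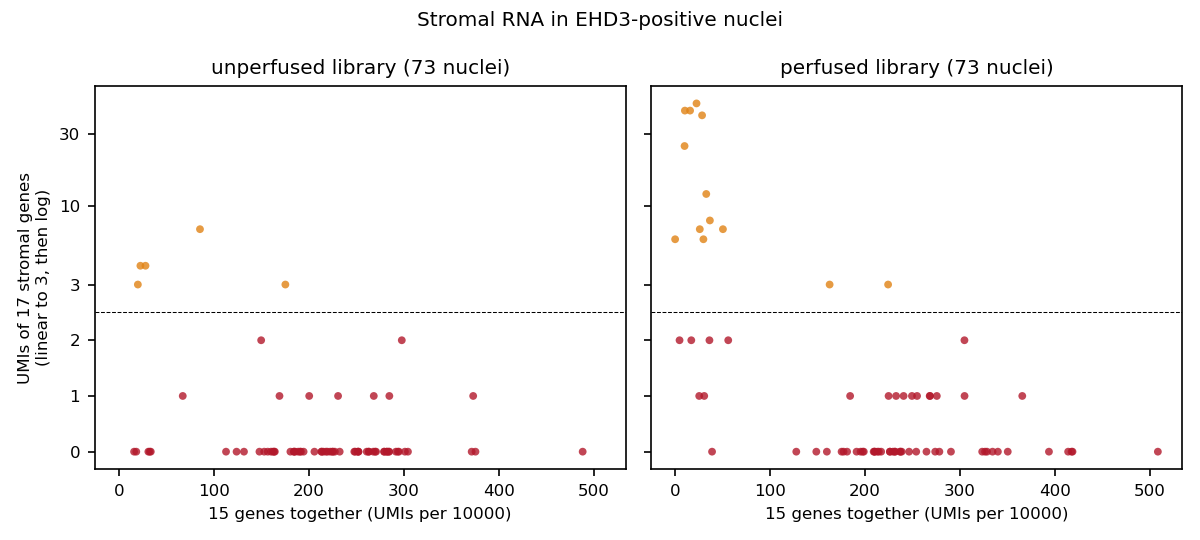
UMIs of 17 stromal genes (linear to 3, then log scale) against the 15 named higher genes together (UMIs per 10000) in each of the 73 EHD3-positive nuclei of each library, with nuclei of 3 or more stromal UMIs (above the dashed line) in orange. Of the 13 orange nuclei in the perfused library all but 2 lie below 100 on x, while 5 nuclei are orange in the unperfused library.

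Between conditions, 123 of 2363 genes (5.21%) were at least 2-fold higher in the perfused members and 50 (2.12%) at least 2-fold lower. Among the 12 genes highest in the perfused members were several known from fibroblasts and vessel walls. C7, a complement component that fibroblasts make, went from 10.9 CPM without to 412 CPM with perfusion, 5.24 on the log2 scale (3.34 to 8.30). SDC2, a syndecan, had 5.11, CCBE1, a secreted lymphangiogenic factor, 4.47, FBLN5, an elastic fibre protein, 3.75, SPON1 3.75, and ACTA2, smooth muscle actin, 3.62. ARHGAP24, FIGN, PID1 and PDE3A had 4.56, 4.04, 3.77 and 3.59. After thinning to 2000 UMIs ACTA2 turned to -0.15, and C7, PDE3A and FBLN5 fell to 0.59, 0.27 and 1.17. The others named so far then had 1.85 to 4.38. In each of these 10 genes 90.2 to 98.3% of the perfused members' UMIs came from the 13 nuclei with stromal RNA. C7 and ACTA2 are among the 17 genes that chose those nuclei, so for these genes the share follows largely from the choice. The other genes of the 12, HDAC9 and PKHD1, had 72.1% and 48.5% there, and PKHD1, the collecting duct protein fibrocystin, had 33 of its 68 UMIs in 1 nucleus. What these nuclei are was not tested.

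Without the nuclei that held stromal RNA, 41 of 1834 genes (2.24%) were at least 2-fold higher in the perfused members and 40 (2.18%) lower. C7, one of the 17 stromal genes that chose the nuclei left out, then had 1 UMI in the unperfused and 4 in the perfused members, a log2 ratio of 1.98 (-1.36 to 7.60), and PID1 had -0.02 (-2.44 to 2.40). Leading the higher genes were ZNF438, a zinc finger protein, with 2.04 (1.11 to 3.08), ACER3, a ceramidase, with 1.48 (0.68 to 2.35), and CBFA2T2, a transcriptional corepressor, with 1.34 (0.47 to 2.27). MAML3, a coactivator of Notch, had 1.24, TNS3, a tensin of focal adhesions, 1.12, and PRKG1, the kinase activated by cyclic GMP, 1.06. In EHD3-negative nuclei ZNF438, ACER3 and CBFA2T2 had 0.04, -0.14 and -0.05. PRKG1 and TNS3 were higher in perfused EHD3-negative nuclei too, with 1.64 and 0.85. These EHD3-negative values keep the nuclei with stromal RNA, 5.26% of the unperfused and 19.4% of the perfused ones, so the 2 groups were filtered differently.

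Of the genes lower in the perfused members, RN18S ranked first. The files give it by that name only, and whether its UMIs are ribosomal RNA carried over into the nuclei was not tested. It went from 1190 to 241 CPM, -2.31 on the log2 scale (-2.76 to -1.87), and -3.18 without the nuclei with stromal RNA. In EHD3-negative nuclei it was -1.72, and 82 of its 218 UMIs in the unperfused members came from 1 nucleus. TBX3 went from 524 to 232 CPM, -1.18 on the log2 scale (-1.69 to -0.68), or -0.93 (-1.46 to -0.41) without those nuclei and -0.47 (-0.73 to -0.22) in EHD3-negative nuclei. CD200, an inhibitory ligand for myeloid cells with log2 ratios of 1.68 and 1.28 in EHD3-positive over EHD3-negative nuclei, had -0.96 (-1.43 to -0.50). GASK1B had -1.12, MTREX, an RNA helicase of the nuclear exosome, -1.42, and CCNL1, a cyclin of splicing, -1.39. FBXO22, B3GLCT and GHSR had -0.996 (0.27 in members with at least 2 UMIs of EHD3), -0.96 and -0.96.

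KCND2 and SLCO2A1, the prostaglandin transporter, differed in sign between the members and EHD3-negative nuclei. KCND2 was at 289 and 123 CPM in the members (-1.24, -1.95 to -0.55) and 75.1 and 95.3 CPM in the EHD3-negative nuclei (0.34, 0.06 to 0.62). SLCO2A1 was at 224 and 105 CPM in the members (-1.09, -1.88 to -0.33) and 486 and 703 CPM in the EHD3-negative nuclei (0.53, 0.43 to 0.64). Each rested on 53 or fewer member UMIs per library. In members with at least 2 UMIs of EHD3 SLCO2A1 had 0.037, so its difference in sign was not seen there. After thinning to 2000 UMIs it was smaller, at -0.15, and still negative.

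**Figure D5:**
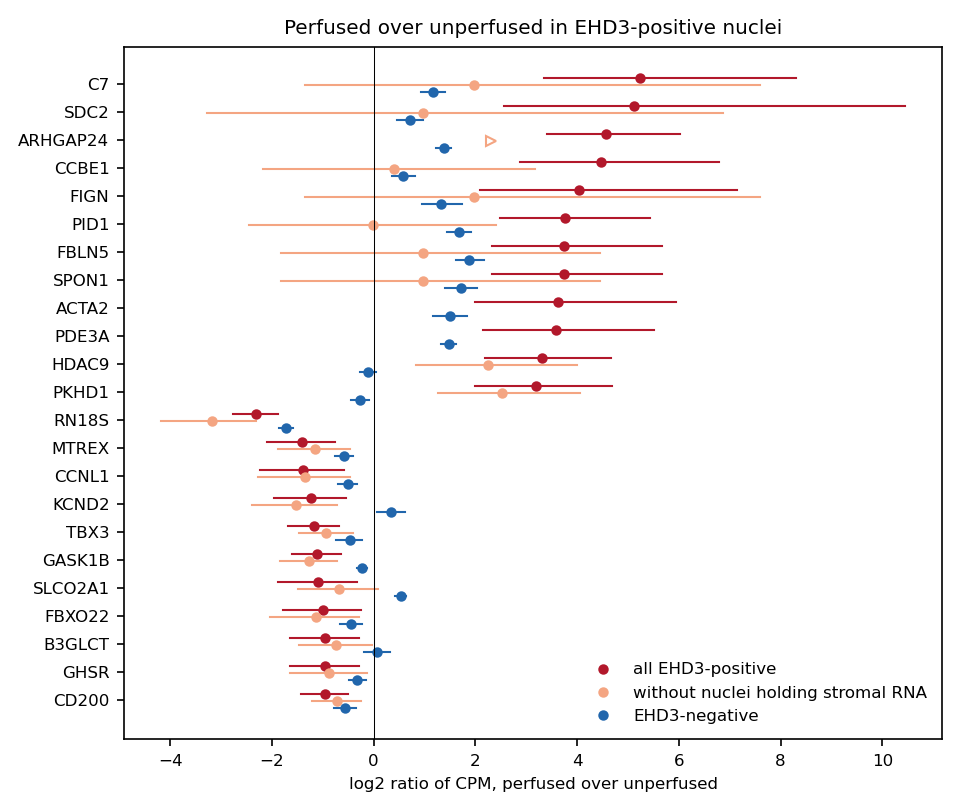
Log2 ratio of CPM in the perfused over the unperfused library for 23 named genes, with exact 95% counting intervals, in all EHD3-positive nuclei, in those without stromal RNA and in EHD3-negative nuclei; an open triangle is a bound against 0 UMIs, and a ratio is left out where the unperfused nuclei had 0 UMIs and the perfused ones too few for a bound. The 12 upper genes lie between 3.18 and 5.24 in all EHD3-positive nuclei and lower without stromal RNA, and the 11 lower genes shown keep negative values in both. ACTA2 and PDE3A have no ratio without stromal RNA.

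The 15 genes were ranked by the smaller of their ratios in the 2 libraries, so a gene high in the members of one library alone could not be among them, and their levels between conditions are a description. Their median log2 ratio of perfused over unperfused members was -0.07, with 7 above and 8 below 0, and 0.21 without the nuclei with stromal RNA. DGKB had 0.03 (-0.24 to 0.31), AGBL4 -0.07, RANBP6 0.00, ITGA8 0.21 and MDGA2 0.08. CACNB2 was higher with 0.61 (0.22 to 1.01) and ST6GALNAC3 with 0.28 (0.14 to 0.42). IGFBP5 was lower with -0.77 (-0.92 to -0.63), and -0.47 without the nuclei with stromal RNA, as was PLAT with -0.37 (-0.71 to -0.02), whose interval held 0 without them. EMCN had -0.67 (-0.85 to -0.49) and KDR -0.52 (-0.80 to -0.24), and without those nuclei -0.55 and -0.26 (-0.55 to 0.04). In the glomerular list 0 of 10 were at least 2-fold higher and 1 (TBX3) lower, and 0 of 10 either way without those nuclei.

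The study asked about mechanosensitive signalling, and 28 target genes of MRTF and SRF, the factors that read actin assembly, were therefore followed, of which 27 were in the files. Of 11 counted, 7 were at least 2-fold higher in the perfused members (5.21% over all genes) and none lower. The list median was 1.21, against 0.01 over all genes and 0.47 in EHD3-negative nuclei. Genes were counted on UMIs summed over both libraries, so a low gene could enter through its perfused UMIs alone. The count and the median are therefore a description and no result about the list. CALD1, caldesmon, was at 109 and 735 CPM, FHL2 at 38.2 and 306 CPM, and ACTG1, cytoplasmic actin, at 98.2 and 228 CPM. Summed, the list had 1714 and 3611 CPM. Without the nuclei with stromal RNA it had 1665 and 1768 CPM, only 2 of its genes kept enough UMIs to be counted, and 0 were higher. CALD1 was then at 0.82 (-0.18 to 1.87), FHL2 at 0.56 (-1.51 to 2.83) and ACTG1 at -0.30 (-1.43 to 0.81). ACTN1, an alpha-actinin, was at 1.12 (-0.02 to 2.36). Several genes of this list are smooth muscle genes, and ACTA2, TAGLN and CNN1 are among the 17 stromal genes by which the nuclei were left out. The lower values of the list without those nuclei therefore follow in part from the choice.

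Among the YAP targets 0 of 6 passed 2-fold in either direction, and among the genes of MRTF, SRF, YAP and mechanosensors themselves 0 of 9. Over all genes 5.21% were higher and 2.12% lower, and counts of 1 in a short list are read against that share and say nothing of the pathway. MAML3 was the 1 of 5 Notch genes that was higher, BMP6 the 1 of 14 in BMP and TGF-beta (1.18, 0.20 to 2.27, and 1.05, -0.10 to 2.30, without the nuclei with stromal RNA), and LAMB1 the 1 of 7 in basement membrane (1.62, and 0.27 without the nuclei with stromal RNA). PIEZO1, the pressure-gated channel, had 22 and 10 UMIs in the members, a log2 ratio of -1.46 (-2.70 to -0.32), and too few UMIs to be counted. Flow-response genes had a median of -0.50, with 0 of 6 past 2-fold, and KLF2, the factor that laminar flow raises, was at 333 and 184 CPM (-0.86, -1.46 to -0.27). Of 4 genes of leukocyte adhesion and NF-kB 1 was lower, NFKBIA, the inhibitor of NF-kB, with -1.21 (-0.96, -2.05 to 0.06, without the nuclei with stromal RNA). Of 12 transcription factors 2 were lower, TBX3 and TAL1, an erythroid and endothelial factor with 30 and 15 UMIs, and without the nuclei with stromal RNA 0 of 12, with -0.93 and -0.97 for this pair. DNAJB1, a heat shock chaperone, was higher with 1.38 (0.42 to 2.45), against -0.32 in EHD3-negative nuclei, and 18 of its 39 UMIs in the perfused members lay in 1 nucleus.

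Ribosomal protein and mitochondrial RNA moved with the stromal RNA. The 13 mitochondrially encoded genes together were at 1905 and 5410 CPM in the members, and 1787 and 2130 CPM without the nuclei with stromal RNA. EHD3-negative nuclei had 1716 and 4295 CPM of them. The 64 ribosomal protein genes were at 6855 and 9280 CPM, and 6261 and 5866 CPM without those nuclei. In the 13 perfused nuclei with stromal RNA mitochondrial genes reached 14070 CPM and ribosomal protein genes 18300 CPM. The part of cytoplasmic RNA in the perfused values was not tested.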

How the data were processed

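Single-nucleus RNA was measured in 2 pig renal cortex libraries, 1 from each condition. Reads were aligned by the authors with Cell Ranger 5.0.1 to the Ensembl pig genome (release 103), with intronic reads counted, and unnormalized UMI counts per gene and barcode were deposited. The deposited counts hold barcodes outside the limits of the paper, so they precede its filters, and SoupX was not run here. The libraries held 7179 and 6205 barcodes with 34415254 and 35525592 UMIs.

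The membership rule was applied to barcodes with 500 to 6000 genes, and counts of each group were summed. Tubule nuclei had LRP2 and CUBN at 30 or SLC12A1 at 20 per 10000 or more, and the 5 endothelial genes under 15. Log2 ratios of CPM have exact binomial intervals, which like the limit of 3 UMIs for a gene at 0 cover counting error only. Genes were counted with at least 40 UMIs in the nuclei compared, in each library for EHD3-positive over EHD3-negative nuclei and over both libraries for perfusion, without the genes of the rule. For 811 of 31908 genes the symbol came from a reference table, by gene identifier. Scrublet (scanpy 1.11.5, Python 3.11.15) called 604 and 486 doublets, which were kept. TMM factors (edgeR 4.0.16) and size factors (DESeq2 1.42.0, R 4.3.3) were alternatives. The calculation of ratio intervals was checked on simulated sums with counting error only. That check held no variation between nuclei, so it says nothing of how well the intervals cover such variation. Named genes were those of the lists and the rule, the 15 with the largest ratio in each direction in both libraries (at least 40 UMIs in the higher group, interval without 0), and the 12 in each direction between libraries (also in at least 10 nuclei of the higher library). The rule for the 12 was repeated without nuclei holding stromal RNA. Some genes these rules name are not reported here. Members and lists were chosen with earlier results of these data known.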

Additional observations from a re-analysis of the deposited data

Results flagged for a closer look

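Some genes went up with perfusion in one endothelial group and down in the other. None of these differences was tested, because each condition has 1 library. PKHD1 had a log2 ratio of perfused over unperfused of 3.18 in EHD3-positive nuclei and -0.27 in EHD3-negative nuclei, with 33 of its 68 UMIs in 1 of the perfused EHD3-positive nuclei. KCND2 had -1.24 in EHD3-positive and 0.34 in EHD3-negative nuclei. SLCO2A1 had -1.09 in EHD3-positive and 0.53 in EHD3-negative nuclei, but 0.037 in EHD3-positive nuclei with at least 2 UMIs of EHD3 and -0.15 after thinning to 2000 UMIs.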

How the results depend on the processing

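The counts of genes past 2-fold kept within 1.5 times of their values with TMM or DESeq2 scaling, doublets left out, a limit of 7% mitochondrial UMIs and equal weight for each nucleus. With at least 2 UMIs of EHD3 (24 and 27 members), 132 genes were higher in EHD3-positive nuclei, 27 were higher and 11 lower in the perfused ones, the shares of members were 0.341% and 0.456%, and the log2 ratios of SLCO2A1 (0.037) and FBXO22 (0.27) turned positive. With endothelial genes at 30 per 10000, 62 were higher in the perfused members. Stricter tubule limits gave 69 higher and 33 lower in the perfused members and shares of 0.768% and 0.828%. Thinning to 2000 UMIs gave 25 and 8, shares of 0.658% and 0.870%, and a log2 ratio of -0.15 for ACTA2. Without the richest nucleus of each gene, 49 genes were higher and 487 lower in EHD3-positive nuclei, and 80 were higher in the perfused members. A minimum of 10 UMIs per gene gave 229 higher in EHD3-positive nuclei, and 666 higher and 674 lower in the perfused members. A minimum of 200 gave 26 higher and 78 lower in EHD3-positive nuclei, and 10 and 2 in the perfused members. Subtracting free RNA gave 169 higher in EHD3-positive nuclei. Leaving out nuclei with stromal RNA, chosen after seeing the data, gave 41 higher in the perfused members and a log2 ratio of -0.020 for PID1. The cause was not tested where the setting itself did not change how many nuclei or genes were counted.

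Counting each named gene once per alternative, 183 values of genes higher and 180 of genes lower in EHD3-positive nuclei stayed within the counting interval, and 27 and 22 left it with no change of sign. Between conditions 297 stayed, 33 left it and the 4 given above changed sign. No paired analysis was possible because each condition has 1 library and no test was made. Depth limits all of these values, since the members held 183217 and 228447 UMIs, and many genes under 40 UMIs could not be compared.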
